A study of Mus musculus with 24 samples.

Results

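The nuclear genes of oxidative phosphorylation were followed in P19, an embryonal carcinoma line of the mouse whose cells are pluripotent and can be led to differentiate. A gene belonged to the set if its symbol began with Nduf, Sdha to Sdhd, Uqcr, Cox4 to Cox8 or Atp5, or was Cyc1 or Cycs, and pseudogenes were left out. This gave 96 genes of the 18193 with a symbol of their own on the arrays, and each gene was read from its probe set with the highest mean signal. Membership followed from names, and the signal decided only which probe set stands for a gene.

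Total RNA of P19 cells grown as a monolayer was compared with RNA of cells kept in suspension, where they aggregate, each at a stage labelled D1 and a stage labelled D2, with 3 RNA samples in each of the 4 groups. All 4 groups grew in the same serum-containing medium, and the labels name no inducer and do not spell out D. The line is 1 clonal culture, and nothing says whether the 3 RNA samples of a group came from separate cultures, so p-values measure only the spread between these samples, which may be technical. Every RNA was read on the chips MOE430A and MOE430B, which made 24 arrays.

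The respiratory chain passes electrons from NADH through complex I, or from succinate through complex II, to coenzyme Q, then through complex III and cytochrome c to complex IV, which reduces oxygen. Complexes I, III and IV pump protons, and ATP synthase uses the gradient to make ATP. Most subunits are encoded in the nucleus, a few catalytic ones in mitochondrial DNA, and the nuclear factors NRF1, GABP (an ETS protein) and YY1 are known regulators of many of the nuclear genes. Pluripotent cells are known to draw much of their ATP from glycolysis while carrying a working respiratory chain.

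Array medians ran from 510.6 to 636.7 signal units on MOE430A and from 758.9 to 923.4 on MOE430B. Of 9 embryonal carcinoma markers 7 were above the chip median in at least 3 arrays, with Pou5f1 between 25310 and 42480 in every sample, while Zfp42 and Dppa5a were not. The same held for 3 of 9 fibroblast, 5 of 7 measured neural, 4 of 8 muscle and 1 of 5 measured blood cell markers. The summed neural markers ran from 15780 to 30540 in monolayer D1, 17920 to 26320 in suspension D1, 13840 to 16210 in monolayer D2 and 14470 to 18640 in suspension D2. Summed fibroblast markers lay between 3112 and 5670, muscle markers between 4331 and 6857 and blood cell markers between 1346 and 2566 over all samples. The neural marker Neurog1, the muscle marker Myog and the blood cell marker Cd3e stayed below the chip median. The neural markers Nefl, Stmn2 and Nefm, the muscle markers Tnnt2, Nkx2-5 and Des and the fibroblast marker Col1a2 lay above it in every sample. The part of these cell types in the results was not tested, and in bulk RNA fewer cells of a type and less RNA per cell cannot be told apart.

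Since the brightest probe set was taken for each gene, the level of the set is a description only. Of the 96 genes, 83 had a mean signal above the 75th percentile of their chip, 1719 on MOE430A or 1973 on MOE430B, and 91 lay above its median. Only genes above the chip median on 3 or more of the 12 arrays were tested, which left 92, and Cox7c, Cox7a1, Cox7b2 and Cox8b fell short. Signals of different probe sets are not on a common scale, so no order of abundance between genes is drawn. Within groups, the median SD of a tested member was 0.208 on the log2 scale, against 0.323 over all 12715 genes tested. The genes compared were not matched for signal, and the part of signal in this gap was not tested. The ratio of the highest to the lowest group mean had a median of 1.225 over the 92 genes, was under 1.5 for 74 of them and reached 2.1 at Uqcrh.

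None of the 92 genes passed the test, an adjusted p under 0.05 in limma, in any of the 7 comparisons run, which were culture at D1 and at D2, stage in monolayer and in suspension, their interaction, and culture and stage averaged over the other factor. The calls were also few over all genes, with 0.0865% called for culture at D1, 0.0865% for culture at D2, 0.0157% and 0% for stage in monolayer and suspension, 0% for the interaction, 0.37% for culture averaged over stages and 0% for stage averaged over cultures. At an unadjusted p under 0.05, 5 members were higher and 0 lower in suspension at D1, against 2.01% and 3.04% of all genes, and at D2 the counts were 7 and 1, against 3.3% and 3.83%. In monolayer 5 members were higher and 9 lower at D2 than at D1, against 4.66% and 4.25%, and in suspension 1 was higher and 2 lower, against 3.37% and 2.51%. For the interaction there were 0 of either sign, against 2.05% and 1.37%. Culture averaged over stages gave 10 higher and 0 lower, against 3.73% and 5%, and stage averaged over cultures 5 higher and 11 lower, against 6.37% and 5.51%.

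The averaged stage comparison depended on the fit. With the replicate number as a block 5 members passed, Atp5g3, Uqcrh, Atp5g1, Ndufb5 and Ndufa4l2 with adjusted p of 0.0186, 0.0216, 0.0283, 0.038 and 0.0429, among 595 of 26516 probe sets called. Without the monolayer D1 sample numbered 2, 4 members passed, Uqcrh, Atp5g1 and Atp5g3 with lower and Ndufa4l2 with higher signal at D2, among 514 of 26516 probe sets called. When arrays were weighted by their fit 5 passed among 485 of 26516, Uqcrh, Atp5g1, Atp5g3, Uqcr10 and Ndufb5. Without that sample Uqcrh and Ndufa4l2 also passed in monolayer alone, with adjusted p of 0.0393 and 0.0493, among 225 of 26516 probe sets called.

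**Figure D1:**
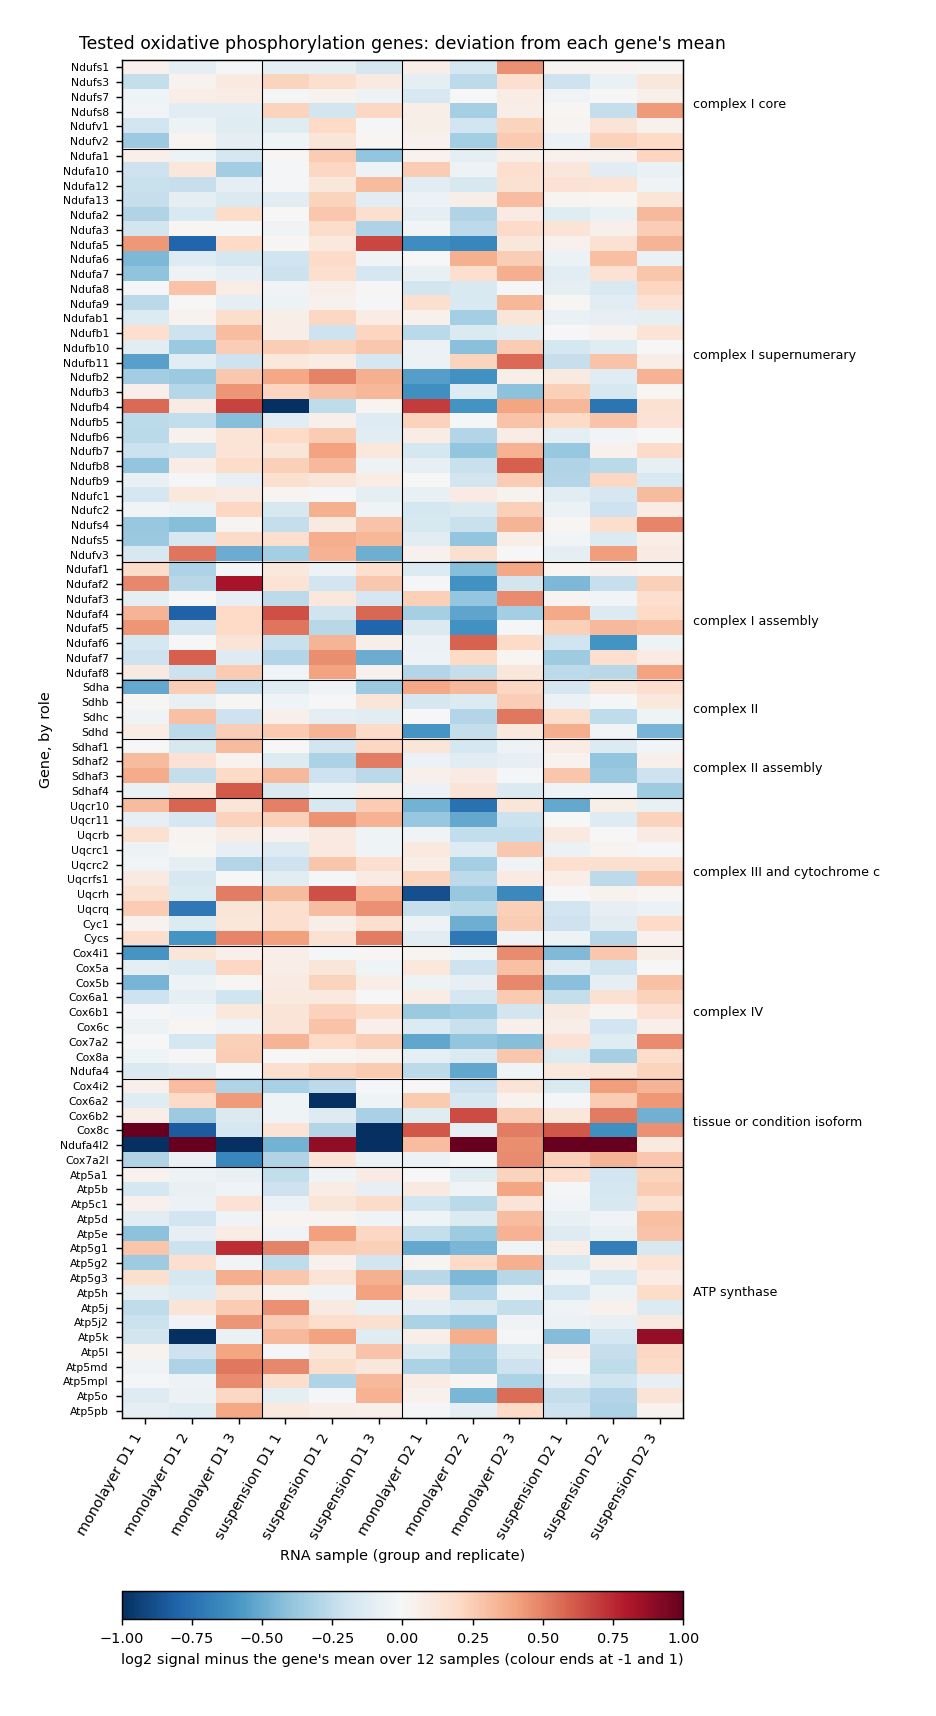
Each row is 1 of the 92 tested genes, ordered by role, and each column an RNA sample. Colour gives the log2 signal minus the gene's mean over the 12 samples and ends at -1 and 1. Most cells are pale, and Ndufa4l2 in the isoform block stands out, with the samples numbered 2 red in all 4 groups.

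The intervals give the sizes of difference that the arrays leave possible. For culture at D1, 85 of 92 members had a 95% interval of the difference that lay within 2-fold in either direction, against 67.6% of all genes. At D2 the count was 84, against 65.5%. For stage it was 82 in monolayer, against 65%, and 86 in suspension, against 67.1%. A narrower bound of 1.5-fold was met by 54, 53, 47 and 53 members in the same order, against 26.4%, 24.3%, 21.7% and 23.9% of all genes. For the other members a difference of 1.5-fold lay inside the interval. For the interaction and for culture and stage averaged, 75, 89 and 90 members lay within 2-fold, against 43.6%, 82.2% and 82.3% of all genes. In these shares too, members and all genes were not matched for signal.

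**Figure D2:**
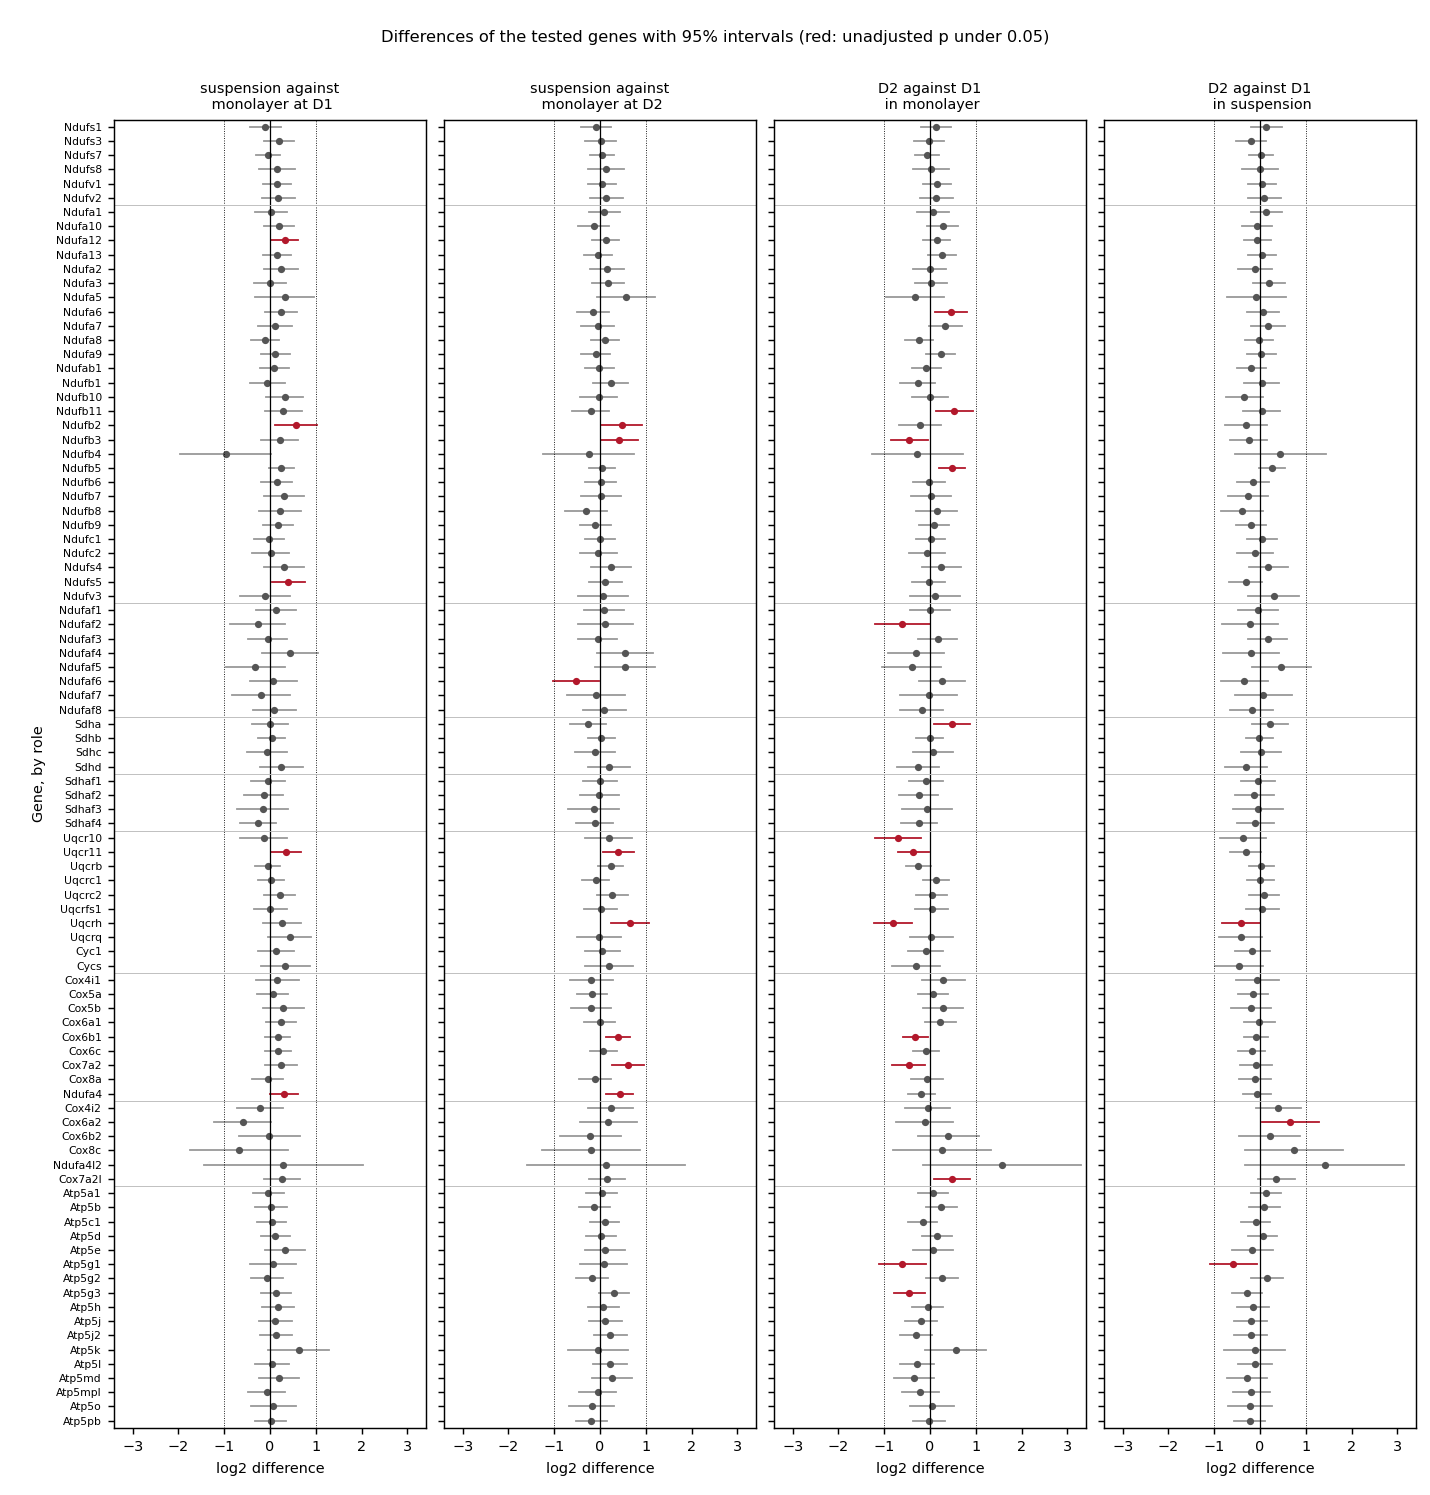
Points are the log2 differences of the 92 tested genes in the 4 pairwise comparisons, bars their 95% intervals and dotted lines 2-fold in either direction. Red marks an unadjusted p under 0.05, which 5, 8, 14 and 3 genes had from left to right, and no gene passed after adjustment.

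The promoters of 3 members are shown as examples of genes whose group means in monolayer cells at D2 stood at an end of the range. That mean was the lowest of the 4 groups for Uqcrh and Cox7a2 and the highest for Sdha. It was the lowest for 34 and the highest for 20 of the 92 tested members, so other genes share this trait. The lines give the 250 bases before the RefSeq start on build GRCm38.p6, 5′ to 3′ in the direction of the gene, and capitals mark matches, on either strand, to the NRF1 motif (GCGCA, any base, GCGC), the ETS core CGGAAG or the YY1 motif (AAGATG followed directly by GCGGC).
Uqcrh (chr4:116075071-116075320, minus strand): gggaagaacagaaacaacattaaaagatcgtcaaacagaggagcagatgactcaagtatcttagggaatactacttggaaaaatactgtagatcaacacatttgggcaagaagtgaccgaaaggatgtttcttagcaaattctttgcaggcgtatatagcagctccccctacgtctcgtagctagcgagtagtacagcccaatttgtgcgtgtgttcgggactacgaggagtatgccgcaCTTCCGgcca
Cox7a2 (chr9:79759854-79760103, minus strand): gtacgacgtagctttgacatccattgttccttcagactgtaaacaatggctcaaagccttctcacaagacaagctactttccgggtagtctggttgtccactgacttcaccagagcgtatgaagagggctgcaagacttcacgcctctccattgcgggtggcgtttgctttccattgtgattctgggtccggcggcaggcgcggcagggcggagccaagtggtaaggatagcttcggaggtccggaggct
Sdha (chr13:74350241-74350490, minus strand): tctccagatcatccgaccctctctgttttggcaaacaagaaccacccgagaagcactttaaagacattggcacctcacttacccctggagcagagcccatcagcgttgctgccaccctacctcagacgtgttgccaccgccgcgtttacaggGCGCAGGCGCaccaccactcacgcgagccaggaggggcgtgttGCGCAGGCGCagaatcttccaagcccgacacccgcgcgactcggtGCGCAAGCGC
Sdha held 3 NRF1 matches, Uqcrh 1 ETS core match read on its other strand, and Cox7a2 no match in this window. The promoters of Uqcr10 and Cox7a2l were taken out with these but are not printed, and they held no match. A match is a description of letters and not a site of binding. By symbol, 79 members had 84 promoters in the RefSeq table. The NRF1 motif lay in 15.5% of these and in 3.74% of all 32851 promoters of the same length, the ETS core in 36.9% and 13.6%, and the YY1 motif in 0% and 0.207%. The letters of these motifs do not overlap in the promoters printed.

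Complex I takes electrons from NADH with a core of catalytic subunits and a shell of supernumerary ones. The catalytic subunits differed little between groups. Ndufs1, the largest iron-sulfur subunit, read 4631, 4226 and 4467 in monolayer D1, 4203, 4214 and 4000 in suspension D1, 4700, 3983 and 6174 in monolayer D2, and 4572, 4591 and 4534 in suspension D2. Only the third monolayer D2 sample stood away from the rest. Ndufv1, which carries the FMN where NADH is oxidised, had group means from 6456 ± 305 in monolayer D1 to 7362 ± 292 in suspension D2 (SD, n = 3). The 6 core subunits had log2 differences between -0.10 and 0.20 for culture at D1, with 0 of them at an unadjusted p under 0.05 in any comparison.

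Of the 28 supernumerary subunits, Ndufb2, Ndufb5 and Ndufb11 belong to the membrane arm. Ndufb2 read 3273, 3226 and 5074 in monolayer D1 against 5479, 5918 and 5366 in suspension D1, and the groups did not overlap. At D2 it read 2849, 2737 and 4362 in monolayer and 4459, 3845 and 5356 in suspension, where they did. Averaged over stages its log2 difference between suspension and monolayer was 0.52 ± 0.15 (SE), with an adjusted p of 0.283 in limma. The other MOE430A probe set of Ndufb2 gave 0.42 ± 0.15 in that comparison, and a MOE430B probe set gave -1.14 ± 0.34. The latter read 2645, 1704 and 2460 in monolayer D2 and 462, 614 and 425 in suspension D2, so the probe sets of this gene disagree in direction.

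Ndufb5 had a higher signal at D2 than at D1 in both cultures without overlap, with 8292, 8382 and 7405 in monolayer D1 and 11696, 9897 and 12147 in monolayer D2. In suspension it read 9199, 10334 and 9120 at D1 and 11414, 12133 and 10996 at D2. The log2 difference averaged over cultures was 0.38 ± 0.09 (SE), a size its second probe set measured at 0.11, and the adjusted p was 0.157. Ndufb11 and Ndufa6 had log2 differences of 0.53 ± 0.19 and 0.45 ± 0.16 (SE) between D2 and D1 in monolayer, with adjusted p of 0.484 and 0.494. In suspension their differences were 0.04 and 0.07, and the adjusted p of the interaction was 1 for each.

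At D1, 23 of 28 supernumerary subunits had a difference above 0 between suspension and monolayer, with a median of 0.185 against -0.026 over all genes. Ndufa12 and Ndufs5 were among them, at 0.32 ± 0.14 and 0.40 ± 0.17 (SE). Ndufb4 lay far below 0, with 1686, 1173 and 1828 in monolayer D1 and 367, 904 and 1124 in suspension D1, a log2 difference of -0.97 ± 0.47 (SE) and an adjusted p of 0.949. In D2 samples it read 1851, 692 and 1484 in monolayer and 1411, 620 and 1234 in suspension, which overlapped. Its replicates spread widely, with a within-group SD of 0.593 on the log2 scale.

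The complex I assembly factors, the 8 Ndufaf genes, help build the enzyme and are not part of it. Their mean signals ran from 783.2 to 11350, and their differences between D2 and D1 in monolayer from -0.61 to 0.26 on the log2 scale. Ndufaf4 read 3493, 1544 and 3163 in monolayer D1 and 4327, 2377 and 4103 in suspension D1. At D2 it read 2168, 1890 and 2156 in monolayer and 3588, 2495 and 3149 in suspension without overlap. The log2 difference at D2 was 0.55 ± 0.28 (SE) with an adjusted p of 0.785 in limma. The sample numbered 2 was the lowest in each of the 4 groups.

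Complex II oxidises succinate and is also an enzyme of the citric acid cycle. Its flavoprotein Sdha read 5734, 9716 and 6977 in monolayer D1 and 7518, 8013 and 6355 in suspension D1. In monolayer D2 it read 10762, 10272 and 9450, above all 3 suspension D2 values of 7287, 8864 and 9205. The log2 difference between suspension and monolayer at D2 was -0.27 ± 0.18 (SE) and that between D2 and D1 in monolayer 0.47 ± 0.18, with adjusted p of 0.853 and 0.527. The iron-sulfur subunit Sdhb differed little, with group means of 12870 ± 445, 13250 ± 766, 12920 ± 2140 and 13110 ± 767 (SD, n = 3) in monolayer D1, suspension D1, monolayer D2 and suspension D2. The 4 complex II assembly factors Sdhaf1 to Sdhaf4 had medians of -0.152 for culture at D1 and -0.118 for stage averaged over cultures, and 4 of 4 lay below 0 in each.

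Complex III passes electrons from coenzyme Q to cytochrome c, and Uqcrh held the lowest p of the members for stage in monolayer and for stage averaged over cultures. Uqcrh, the acidic hinge protein between cytochrome c1 and cytochrome c, read 36310, 29749 and 46507 in monolayer D1 and 40719, 50989 and 41589 in suspension D1. The D2 samples gave 17717, 25036 and 20829 in monolayer and 32745, 33535 and 33172 in suspension. All 3 monolayer D2 values lay below the 9 other samples. The log2 difference between D2 and D1 was -0.81 ± 0.20 (SE) in monolayer, an adjusted p of 0.272 in limma, and -0.41 ± 0.20 in suspension, an adjusted p of 0.841. Between suspension and monolayer at D2 it was 0.66 ± 0.20 with an adjusted p of 0.381. The second Uqcrh probe set, on MOE430A, differed by -0.50 ± 0.15 and 0.40 ± 0.15 in the monolayer stage and D2 culture comparisons, and its groups did not overlap either. The probe set with the higher signal carries a suffix of the array maker for probes shared between transcripts.

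Uqcr11, the smallest subunit of the complex, also had its highest group mean in suspension D1 and its lowest in monolayer D2. It read 4251, 3995 and 5297 in monolayer D1, 5315, 6166 and 5749 in suspension D1, 3449, 3140 and 3861 in monolayer D2, and 4491, 4110 and 5278 in suspension D2. The groups did not overlap in any of the 4 pairwise comparisons, and the log2 differences were 0.35 and 0.40 for culture at D1 and D2 and -0.36 and -0.31 for stage in monolayer and suspension, each with an SE of 0.155. Their adjusted p were 0.949, 0.62, 0.579 and 0.841. The catalytic and core subunits Cyc1, Uqcrfs1 and Uqcrc1 differed less, with differences between -0.17 and 0.13 over the pairwise comparisons.

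Uqcr10, another small subunit, read 8920, 10737 and 7795 in monolayer D1 and 5149, 4240 and 7776 in monolayer D2, a log2 difference of -0.71 ± 0.24 (SE) with an adjusted p of 0.443. In suspension it read 10162, 6376 and 8536 at D1 and 5001, 7465 and 6768 at D2, which overlapped. Its dimmer probe sets measured 0.17 and -0.31, so size and direction rest on the probe set used. Cycs, the cytochrome c of somatic cells, read 20375, 11994 and 25306 in monolayer D1, 23934, 20103 and 25759 in suspension D1, 16759, 10987 and 17564 in monolayer D2, and 17464, 14824 and 18582 in suspension D2. The sample numbered 2 was the lowest in each group. The suspension groups did not overlap between stages, and the log2 difference there was -0.45 ± 0.25 (SE) with an adjusted p of 0.841.

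Complex IV reduces oxygen, and its nuclear subunits surround a core encoded in mitochondrial DNA, of which no transcript was named on the arrays. Cox7a2, the widely expressed form of a small subunit, read 36405, 32043 and 42810 in monolayer D1 and 45864, 41643 and 43085 in suspension D1. The D2 values were 25278, 27546 and 26982 in monolayer and 40019, 33387 and 50392 in suspension. The monolayer D2 values were again the lowest 3 of the 12. The log2 difference between suspension and monolayer at D2 was 0.61 ± 0.16 (SE), an adjusted p of 0.345, and its second probe set gave 0.62 ± 0.17. Between D2 and D1 in monolayer the difference was -0.47 ± 0.16, an adjusted p of 0.471.

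Ndufa4, named for complex I but now known as a subunit of complex IV, read 11071, 11378 and 12103 in monolayer D1 and 13681, 14256 and 14714 in suspension D1. At D2 it read 10180, 8514 and 11897 in monolayer and 13148, 13297 and 14318 in suspension. Suspension samples were higher without overlap at both stages, and the averaged log2 difference was 0.36 ± 0.10 (SE) with an adjusted p of 0.229. Cox6b1, which faces the intermembrane space, read 25793, 25622 and 28070 in monolayer D1, 28576, 30661 and 29774 in suspension D1, 20180, 20636 and 22957 in monolayer D2, and 27767, 26571 and 28858 in suspension D2. It too was higher in suspension without overlap at both stages, by an averaged 0.27 ± 0.09 with an adjusted p of 0.354. The subunits Cox4i1, Cox5a and Cox6a1 had log2 differences between -0.19 and 0.29 over the pairwise comparisons, and 0 of these had an unadjusted p under 0.05. Of the 9 tested complex IV genes, 0 lay above 0 for stage in suspension, against 53.6% of all genes, with a median of -0.0975 and 0 at an unadjusted p under 0.05. Cox7c, a further subunit, was not tested and read between 310.3 and 462.2.

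Some subunits have related forms used in muscle, heart, lung, testis or low oxygen, and most of these were dim. Cox7a1 and Cox8b, the forms of muscle and heart, had group means of at most 253.4 and 163.8, and Cox7b2 of at most 468.4. Cox6a2, also a muscle and heart form, read 951, 390 and 952 in suspension D1 and 976, 1182 and 1343 in suspension D2 without overlap. The log2 difference was 0.66 ± 0.29 (SE) with an adjusted p of 0.841, and 0.27 without the suspension D1 sample numbered 2. In monolayer it read 897, 1126 and 1336 at D1 and 1188, 875 and 1006 at D2, which overlapped. Cox4i2, the lung and low-oxygen form, had group means from 719.8 to 977.2, Cox6b2, the testis form, from 488.1 to 684.8, and Cox8c from 2637 to 4684 with a within-group SD of 0.806 on the log2 scale.

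Ndufa4l2, a relative of Ndufa4 that is known to be induced in low oxygen, was the most variable member, with a within-group SD of 1.38 on the log2 scale. It read 1535, 17374 and 1048 in monolayer D1 and 4172, 10867 and 1181 in suspension D1. At D2 it read 7265, 14094 and 8122 in monolayer and 11988, 14616 and 6269 in suspension. The sample numbered 2 was the highest in each of the 4 groups. The averaged log2 difference between D2 and D1 was 1.49 ± 0.58 (SE) with an adjusted p of 0.361, and without both D1 samples numbered 2 it was 2.47 with an adjusted p of 0.00192. That choice was made after those values were seen. Cox7a2l, which joins complexes III and IV into supercomplexes, read 6669, 7827 and 5207 in monolayer D1 and 7882, 8140 and 11389 in monolayer D2. In suspension it read 6673, 8988 and 7879 at D1 and 9720, 10411 and 9902 at D2. Its groups did not overlap between stages in either culture, and the averaged log2 difference was 0.42 ± 0.13 (SE) with an adjusted p of 0.252. Its other probe sets gave 0.45 and 0.84.

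**Figure D3:**
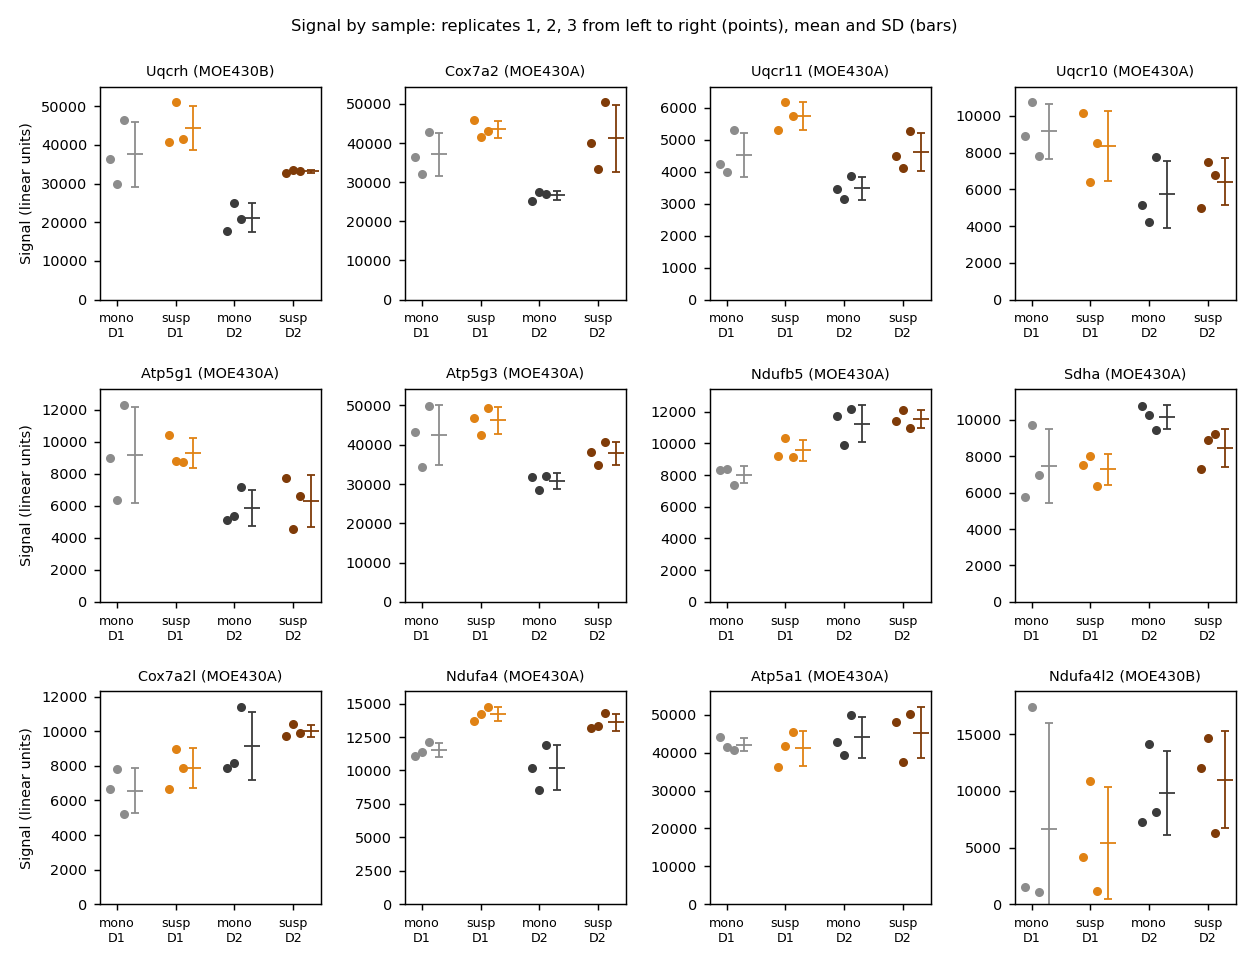
Linear signals of 12 members by sample, with the group mean and SD beside the points (for Ndufa4l2 in monolayer D1 the SD bar reaches below 0 and is cut). Uqcrh and Cox7a2 are lowest in monolayer D2, Ndufb5 and Cox7a2l are higher at D2 than at D1, and Atp5a1 lies level.

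ATP synthase makes ATP at its F1 head, driven by the ring of c subunits in the membrane. The subunits of the head differed little. Atp5a1, the alpha subunit, had group means of 42090 ± 1750, 41140 ± 4620, 44070 ± 5390 and 45290 ± 6700 (SD, n = 3) in monolayer D1, suspension D1, monolayer D2 and suspension D2, and Atp5b, the beta subunit, means from 36470 ± 1810 to 43490 ± 6970. Their log2 differences over the pairwise comparisons ran from -0.13 to 0.24. The c subunit is encoded by Atp5g1, Atp5g2 and Atp5g3, which give the same mature protein. Atp5g1 read 8960, 6334 and 12313 in monolayer D1, 10404, 8806 and 8724 in suspension D1, 5140, 5343 and 7158 in monolayer D2, and 7733, 4559 and 6603 in suspension D2. Only the suspension groups did not overlap between stages. The log2 differences were -0.61 ± 0.24 (SE) in monolayer and -0.59 ± 0.24 in suspension, and the averaged adjusted p was 0.197.

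Atp5g3 read 43246, 34347 and 49750 in monolayer D1 and 31890, 28411 and 31932 in monolayer D2. In suspension it read 46742, 42544 and 49420 at D1 and 38039, 34810 and 40714 at D2. D2 was lower without overlap in both cultures, with an averaged log2 difference of -0.37 ± 0.11 (SE) and an adjusted p of 0.219. Atp5k, the e subunit of the membrane part, shows how far a gene can depend on its probe set. Its brightest probe set differed by 0.56 between D2 and D1 in monolayer and its other probe sets by -0.25 and -0.72.

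Over the set as a whole, the median difference was above 0 for suspension against monolayer at D1. The median log2 difference was 0.116 against -0.026 over all genes, and 65 of 92 members lay above 0, against 46.1% of all genes. This was not particular to the set. The 43 tested cytosolic ribosomal proteins had a median of 0.1 with 36 above 0. The 76 mitochondrial ribosomal proteins had a median of 0.0532 with 45 above 0. Medians of the other gene lists described below ran from -0.0314 to 0.0667. Signs depended on the probe set. Of 46 members with several tested probe sets, 23 had the same sign in all of them. The largest gap from the brightest probe set had a median of 0.189. Signs also agreed for 23 members for culture at D2, and for 30 and 28 for stage in monolayer and suspension. Of the members, 11 were higher and 2 lower in suspension without overlap of the groups, against 3.78% and 5.71% of all genes. With the replicate number as a block, 13 members, each read from 1 probe set, had an unadjusted p under 0.05 and 0 passed. Among all 26516 tested probe sets, with several for some genes, 2051 had such a p and 30 passed. The difference was not the same in each pair of arrays. Its median was -0.00498 between the samples numbered 3, which were hybridised later than the rest. On MOE430B the 3′ to 5′ signal ratio of the beta-actin control was 1.25 to 1.33 in suspension D1 and 0.968 to 1.13 in monolayer D1, and the signal of 18S ribosomal RNA on MOE430A was 30850 to 50640 in suspension D1 and 5880 to 28880 in monolayer D1, without overlap. On the other chip of each control the groups overlapped. The actin ratio on MOE430A, which holds 86 of the 96 members, was 1.2 to 1.33 in suspension D1 and 0.998 to 1.21 in monolayer D1. The 18S signal on MOE430B was 128300 to 266300 and 32050 to 133200 in the same order. The 3′ to 5′ ratio of the Gapdh control overlapped on both chips. The part of these controls in the difference was not tested.

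At D2 the median was 0.037 against -0.003, with 55 of 92 above 0, against 49.5%. The median was -0.0286 without monolayer D2 number 2, -0.0157 without suspension D2 number 3 and -0.0193 with each array centred on its median. Here 11 members were higher in suspension without overlap, against 7%, and 1 was lower, against 7.23%. The medians of the set for stage were -0.011 in monolayer and -0.065 in suspension, against -0.005 and 0.026 over all genes. The monolayer value ranged from -0.111 to 0.0885 as 1 sample was left out, and was above 0 without monolayer D2 number 2 or monolayer D1 number 3, while centring moved the suspension value to -0.205. Of the members, 43 lay above 0 in monolayer, against 49.4%, and 36 in suspension, against 53.6%. For the interaction 40 lay above 0, against 52.4%, and for culture and stage averaged 62 and 40, against 46.2% and 52.3%. For stage in monolayer 6 members were higher and 8 lower without overlap, against 6.61% and 6.78%, and in suspension 4 were higher and 13 lower, against 6.27% and 5.84%. Monolayer D2 held the lowest group mean for 34 of 92 members and 27.5% of all genes, and monolayer D1 for 28 members and 21.5% of all genes. Suspension D1 held the highest for 39 members and 22.7% of all genes. The signal of the B1 repeat control was 26230 to 39310 at D1 and 7752 to 18190 at D2 on MOE430A, and its part in the stage differences was not tested.

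By role, the medians per sample overlapped between groups in the 4 pairwise comparisons except for complex III with cytochrome c and the isoforms. Complex III with cytochrome c lay above 0 in all 3 suspension D1 samples, at 0.127 to 0.213, and between -0.0405 and 0.0633 in suspension D2. In monolayer D1 they were 0.119, -0.136 and 0.114, all below the suspension D1 values. The isoforms had medians of -0.194 to -0.17 in suspension D1 and 0.177 to 0.377 in suspension D2. The set's lowest sample was monolayer D2 number 2, at -0.212, and its highest suspension D2 number 3, at 0.13.

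**Figure D4:**
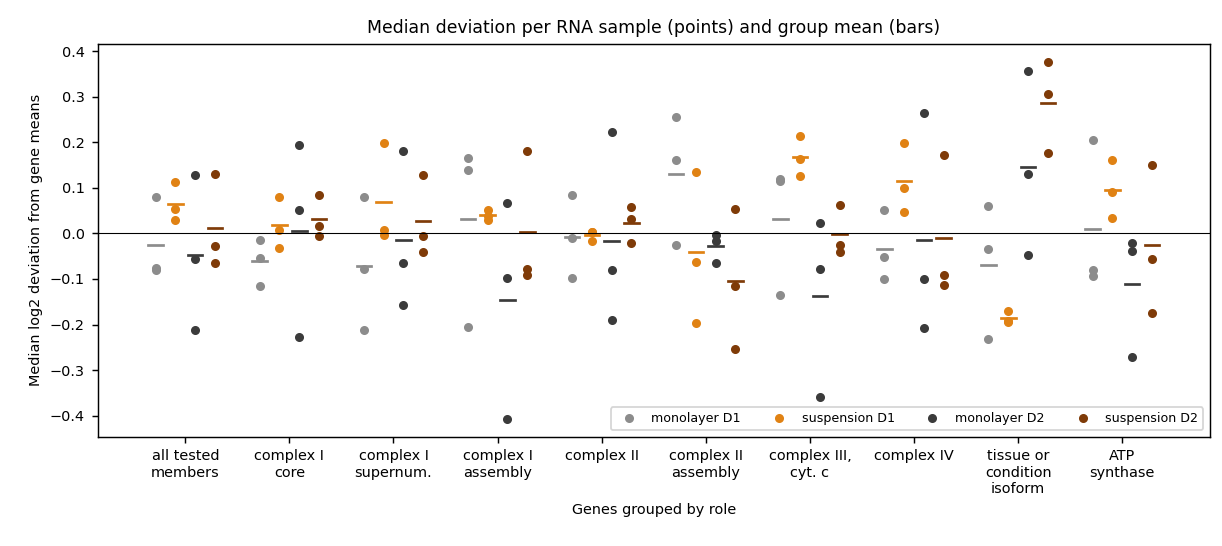
Points are the 12 RNA samples and show the median log2 deviation of the genes of a role from their means, with bars for group means. Groups overlap in most panels, and suspension D1 lies above suspension D2 for complex III with cytochrome c and below it for the isoforms.

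Genes that build, feed or accompany the chain were taken from lists chosen beside the member rule, and 0 of them passed in any comparison. For D2 against D1 averaged over cultures, the 76 mitochondrial ribosomal proteins, which translate the transcripts of mitochondrial DNA, had a median of -0.119 with 16 of 76 above 0, against 0.0136 and 52.3% over all genes. At an unadjusted p under 0.05 there were 13 lower and 1 higher, against 5.51% and 6.37% of all genes, among them Mrpl42 at -0.68 ± 0.17 (SE). The 28 tested protein import genes had a median of -0.176 with 8 above 0, and the import chaperone Hspa9 lay above it at 0.42 ± 0.11. The 43 tested cytosolic ribosomal proteins had a median of 0.121 with 37 above 0.

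Of 19 pyruvate dehydrogenase and citric acid cycle genes, 14 lay above 0 for stage in monolayer, against 49.4% of all genes, with a median of 0.214. In suspension 10 lay above 0, with a median of 0.00876, and for culture at D2 there were 6 above 0, with a median of -0.149. The pyruvate carboxylase gene Pcx had an averaged stage difference of 0.87 ± 0.25 (SE), with an adjusted p of 0.209. Pdk1, the kinase that switches pyruvate dehydrogenase off, differed by 0.84 ± 0.31 between suspension and monolayer averaged over stages, adjusted p 0.488, and Ldha, which makes lactate, by 0.26 ± 0.19. The 9 tested genes of their list had a median of -0.0246 in that comparison, with 4 above 0. Among 22 complex IV assembly genes, Pet100 and Higd2a had averaged culture differences of 0.69 ± 0.14 and 0.37 ± 0.10, with adjusted p of 0.0789 and 0.251. The 14 genes listed for complex III and V assembly and import of their parts had an averaged stage median of -0.0189. Of this wider list, the inner membrane gene Ghitm stood at 0.77 ± 0.15, with an adjusted p of 0.11. The 10 other complex I assembly genes had a median of 0.0335, the 21 tested biogenesis regulators 0.0198, the kinase and lactate genes 0.0817, the 12 tested carriers and porins 0.0306 and the 19 tested coenzyme Q and heme genes -0.000298.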

How the data were processed

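Total RNA of P19 cells was measured on Affymetrix arrays, 12 RNA samples in 4 labelled groups, each on 2 chips. The deposited values are linear intensities that MAS5 produced, according to the submitters' processing notes, which name no version. They were already scaled, to a 2% trimmed mean of 1500 or 1501 on each array. Detection calls were not used here. Array data carry no read depth.

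An offset, the chip's 10th percentile (51.0 on MOE430A, 108.1 on MOE430B), was added before log2, which understates folds of dim genes. Differences were tested with limma 3.58.1 in R 4.3.3, with 1 mean per group, eBayes with trend, and two-sided p-values with Benjamini-Hochberg adjustment across the 26516 filtered probe sets, MOE430A and MOE430B together (chip medians 599.8 and 846.4). The fit was tested on simulated data with independent noise for each array, which do not hold deviations shared by same-numbered samples. Symbols came from the platform annotation and promoters from RefSeq.

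The members and lists were chosen with earlier results of these data known. Named members were, per comparison, those past the test, up to 8 with the largest rise and 8 with the largest fall among those without overlap (averaged: same sign at both levels and unadjusted p under 0.05), 16 reference subunits, isoforms, and up to 4 genes of each other list. Cox7c, Cox7b2 and Ndufs5 at D1 were added after their values were seen. Same-numbered samples deviated together at D1, with correlations of 0.107, 0.236 and 0.16 across probe sets, while elsewhere not every pair passed 0.1. At D1, and between the stages in monolayer, same-numbered samples also shared a hybridisation run and station, so pairing and run cannot be told apart there. Alternatives were the replicate or hybridisation run as a block, scaling, offset, filter, array weights, other probe sets and each sample left out.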

Additional observations from a re-analysis of the deposited data

How the results depend on the processing

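Over all alternatives the count of members past the test stayed at 0 for culture at D1, culture at D2, stage in suspension and the interaction. For culture averaged over stages it was 1 with the replicate block, Cox7a2 with an adjusted p of 0.0391 among 220 of 26516 probe sets called. For stage in monolayer it was 2 without both D1 samples numbered 2, among 360 probe sets called, and 0 to 2 over the fits that left out a sample. For stage averaged over cultures it was 5 with the replicate block, 5 with array weights, 8 without both D1 samples numbered 2 and 0 to 4 over the fits that left out a sample. In that comparison the block called 595 of 26516 probe sets, array weights 485 and the fit without both D1 samples numbered 2 897, against 0 in the fit reported. The fit without both D1 samples numbered 2 was chosen after values were seen, so its counts are a description only. Same-numbered samples of 1 culture correlated by 0.0479 to 0.182 between stages, not above 0.1 for every pair. Every sample correlated best with its own number, a hint from the data and not from the labels. The samples numbered 3 share the later run. At D1 and in monolayer D2 the other numbers each share a station of the earlier run. In suspension D2 these stations are exchanged.

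The set's median log2 difference moved by more than its spread between replicates, 0.112, in these cases. For culture at D1 it was -0.00498 within the later run, whose samples are those numbered 3. For culture at D2 it was 0.195 within the earlier run on station 1 and 0.171 between the samples numbered 2. For stage in monolayer it was -0.143 in both of these, which are the same samples there. For stage in suspension it was 0.0486 and for averaged stage 0.0692 within the later run. Centring each array on its median gave -0.205 for stage in suspension and -0.199 for the interaction. Leaving out 1 sample gave medians of 0.0582 to 0.158 and -0.0286 to 0.13 for culture at D1 and D2, -0.111 to 0.0885 and -0.113 to -0.037 for stage in monolayer and suspension, -0.129 to 0.0662 for the interaction, and 0.0315 to 0.117 and -0.0979 to -0.0121 for averaged culture and stage. The share of members with an interval within 2-fold stayed within 1.5 times under every alternative. Of the values of named genes under the alternatives, 3792 kept their sign and side of the threshold, 24 passed it and 192 uncalled values changed sign. Some of those 24 came from the fit without both D1 samples numbered 2. The count of members with an unadjusted p under 0.05 was less stable. Over the alternatives with 1 probe set per gene it ran from 1 to 13 for culture at D1 against 5 in the fit reported, 5 to 12 against 8 for culture at D2, 5 to 25 against 14 and 0 to 11 against 3 for stage in monolayer and suspension, 0 to 4 against 0 for the interaction, 7 to 16 against 10 for averaged culture and 9 to 26 against 16 for averaged stage. Its highest values at D1 and for stage in suspension, 13 and 11, came with the replicate block. For stage in monolayer and averaged stage, leaving out the monolayer D1 sample numbered 2 gave 23 and 26, and for stage in suspension leaving out the suspension D2 sample numbered 2 gave 0. The 25 for stage in monolayer came from the fit without both D1 samples numbered 2. The causes were not tested.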
